A study of Mus musculus with 15 samples.

Results

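The transcripts of 10 transcription factors of the naive pluripotent state were followed through a knockdown of Smarcb1 in mouse embryonic stem cells (mESC). The factors were Klf4, Klf2, Klf5, Tbx3, Esrrb, Nr5a2, Nr0b1, Tfcp2l1, Zfp42 and Prdm14. They were found by their symbols, and 10 of 10 were present among the 55228 genes listed for each library. RNA was sequenced from the cell line 81K1, which is based on OG2 mESC and in which an shRNA against Smarcb1, inserted into the Rosa26 locus of a single parental clone, is expressed from a doxycycline dependent promoter. Smarcb1 is a core subunit of the BAF complex, which remodels chromatin with the energy of ATP. All 5 groups were made of the same line, grown in serum and LIF on gelatine, so untreated cells carried the inducible shRNA as well.

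The untreated groups were 48 h ctrl and 240 h ctrl, and the groups given 1 µg doxycycline per ml each day were 48 h kd, 72 h kd and 240 h kd, named by the hours after induction, with 3 libraries each. The 72 h kd libraries were compared with 48 h ctrl, so that this comparison and the 48 h comparison share their controls. No untreated 72 h libraries were analysed here, and in every 72 h value the knockdown cannot be told apart from the added time in culture or from other differences between the 48 h and 72 h samplings. Doxycycline on cells lacking the shRNA was not analysed here. Nothing states that the libraries of a group came from separate cultures, and p-values then measure only the spread between these libraries, which may be technical.

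Naive pluripotency is the state of the epiblast before implantation, and mESC hold it in culture. LIF acts through Stat3 on factors such as Klf4 and Tfcp2l1, Wnt signalling lifts the repression by Tcf7l1 of genes such as Esrrb, and the factors bind each other's genes and those of the core factors Pou5f1, Sox2 and Nanog. When cells leave the naive state, most of these factors are switched off while Pou5f1 is still made, and genes of the formative and primed epiblast come on.

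Library totals lay between 11074998 and 14515300 reads. Values are FPKM, reads scaled to the length of the whole gene span, introns included, and to the total of the library. Reads were counted over whole spans without regard to strand. Smarcb1 itself stood at 18.0%, 15.7% and 19.3% of the control mean after 48 h, 72 h and 240 h of knockdown, and every kd library was below every ctrl library. In 48 h kd replicate 2, mitochondrial genes held 2.35% of the reads, against 0.469% to 1.81% in the other 14 libraries. Values of Klf2, Esrrb and Nr0b1, and the counts of the 10 factors at an adjusted p under 0.05, are also given without it. Counts of groups that did not overlap are given with it only. In 15 pairs of libraries of the same group, the chi-square of the reads per degree of freedom was 1.27 to 10.2, so no library repeated another within sampling noise. A gene was called in limma at a Benjamini-Hochberg adjusted p under 0.05 together with an absolute log2 fold change above 0.58, and "fell" or "rose" is used of called genes only. In bulk RNA, fewer cells expressing a gene and less RNA per cell cannot be told apart.

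Sequences before the gene start are shown for 3 members, since Klf factors and the core factors are known to bind near naive genes. RefSeq windows of 300 bases (GRCm38.p6), from 250 before to 50 after a start, were at hand for 7 of the 10 members, in 9 windows. They were searched on both strands for GGGNGTGG (Klf), TCAAGGTCA (Esrrb or Nr5a2), AGGTGTGA (T-box), TTCCNGGAA (Stat) and, added after the sequences had been read, ATTTGCAT (the octamer bound by Pou5f1), and no matches overlapped. The 250 bases before the start are given 5′ to 3′ on the strand of the gene, with matches in capitals. Klf4 is shown as the member called at every time point that has a window, Tfcp2l1 and Zfp42 for their matches. The intervals are chr4:55532476-55532725 on the minus strand for Klf4, chr1:118627695-118627944 on the plus strand for Tfcp2l1 and chr8:43307010-43307259 on the minus strand for Zfp42.
Klf4: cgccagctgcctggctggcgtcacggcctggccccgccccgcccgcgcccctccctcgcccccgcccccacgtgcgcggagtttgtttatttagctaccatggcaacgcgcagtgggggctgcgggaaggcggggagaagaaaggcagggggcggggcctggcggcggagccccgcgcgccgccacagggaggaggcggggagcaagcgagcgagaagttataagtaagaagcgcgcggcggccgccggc
Tfcp2l1: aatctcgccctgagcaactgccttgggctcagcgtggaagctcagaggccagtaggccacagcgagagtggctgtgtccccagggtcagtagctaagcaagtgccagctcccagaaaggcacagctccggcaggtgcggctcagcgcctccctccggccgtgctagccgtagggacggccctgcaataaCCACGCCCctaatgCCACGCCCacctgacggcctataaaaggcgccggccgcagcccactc
Zfp42: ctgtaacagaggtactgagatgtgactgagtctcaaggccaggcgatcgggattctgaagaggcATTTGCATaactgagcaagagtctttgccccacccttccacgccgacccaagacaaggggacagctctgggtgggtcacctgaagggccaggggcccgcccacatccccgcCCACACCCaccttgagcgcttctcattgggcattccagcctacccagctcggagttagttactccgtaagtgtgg

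The Klf motif was found in 3 of the 9 windows, those of Tfcp2l1 and Zfp42 and a window at an inner start of Nr5a2, against 17.6% of all 32851 windows. Tfcp2l1 held it as CCACGCCC at 61 and again at 47 bases before the start, Zfp42 as CCACACCC at 75 bases and Nr5a2 as GGGCGTGG at 157 bases. The octamer stood 186 bases before the start of Zfp42 and in no other member window, against 1.74% of all windows. The Esrrb or Nr5a2 motif, the T-box motif and the Stat motif were in 0 of 9 windows, and in 0.423%, 1.28% and 1.15% of all windows. A match is a description of letters and not of binding.

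**Figure D1:**
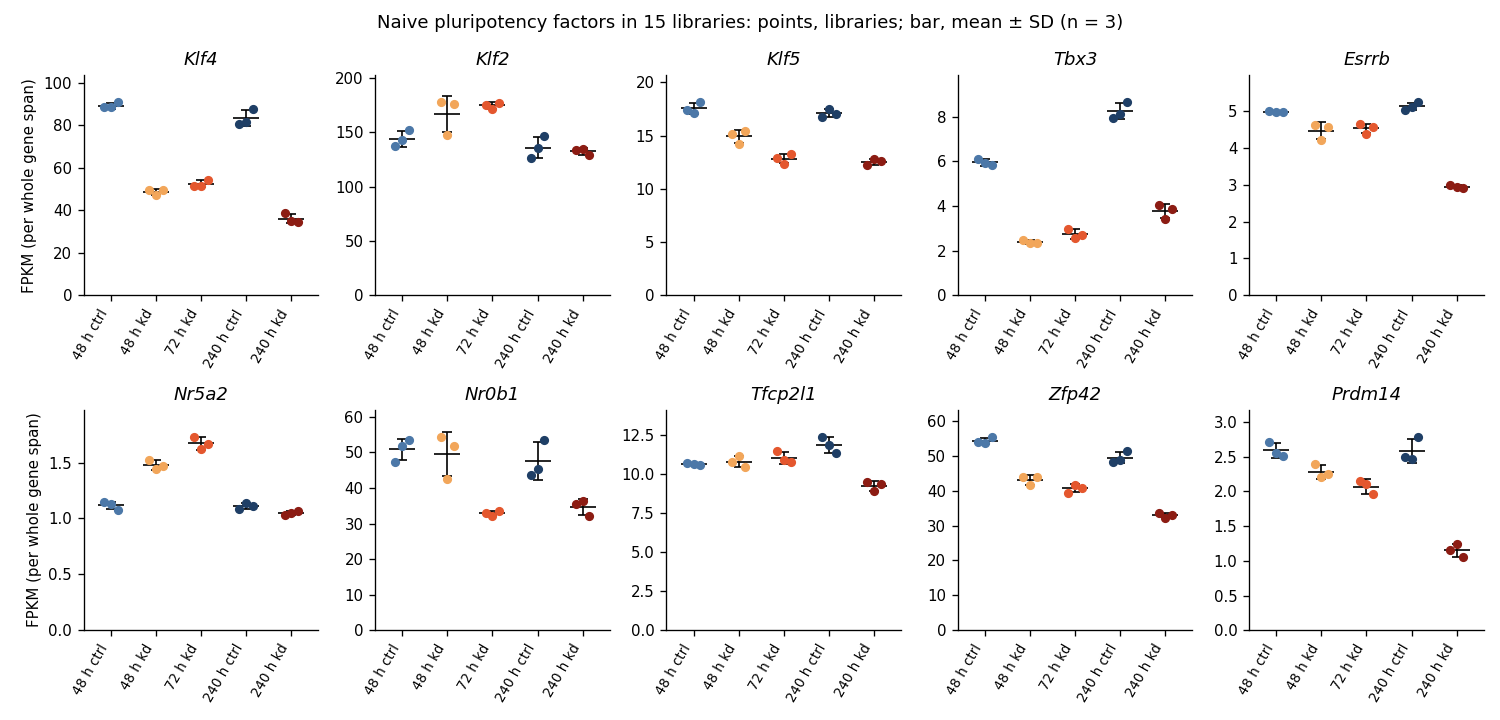
FPKM per whole gene span (y axis, from 0, own scale for each gene) of the 10 factors in the 5 groups (x axis). Points are single libraries and the black bar is the mean with its SD over 3 libraries. Klf4 and Tbx3 drop at 48 h and stay low, Prdm14 and Esrrb drop mainly at 240 h, and Nr5a2 is higher at 48 h and 72 h only.

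At 48 h of knockdown 2 of the 10 factors fell and 0 rose, Tbx3 and Klf4. Of all 11420 genes tested, 3.99% were called in either direction and 2.01% were called lower. At 72 h 3 of 10 fell, Tbx3, Klf4 and Nr0b1, where 13.5% of all genes were called and 5.3% were called lower. At 240 h 5 of 10 fell, Klf4, Tbx3, Prdm14, Esrrb and Zfp42, where 8.91% of all genes were called and 4.12% were called lower. No factor was called higher at any of the 3 times, although 1, 2 and 0 of the 10 were higher at an adjusted p under 0.05 alone. With that looser rule 5, 9 and 8 of the 10 factors differed, and so did 16.1%, 55% and 33.8% of all genes. Without 48 h kd replicate 2 the count at 48 h was 6 of 10, with 2 higher, Klf2 and Nr5a2, and the share of all genes was 14.9%. The kd and ctrl libraries did not overlap for 7, 10 and 9 of the 10 factors, and for 39.4%, 64.7% and 50.2% of all genes. The median log2 fold change of the factors was −0.16, −0.36 and −0.52 at 48 h, 72 h and 240 h, and that of all genes tested was 0.0057, 0.0090 and −0.0016. At 240 h 10 of 10 factors had a mean below the control.

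**Figure D2:**
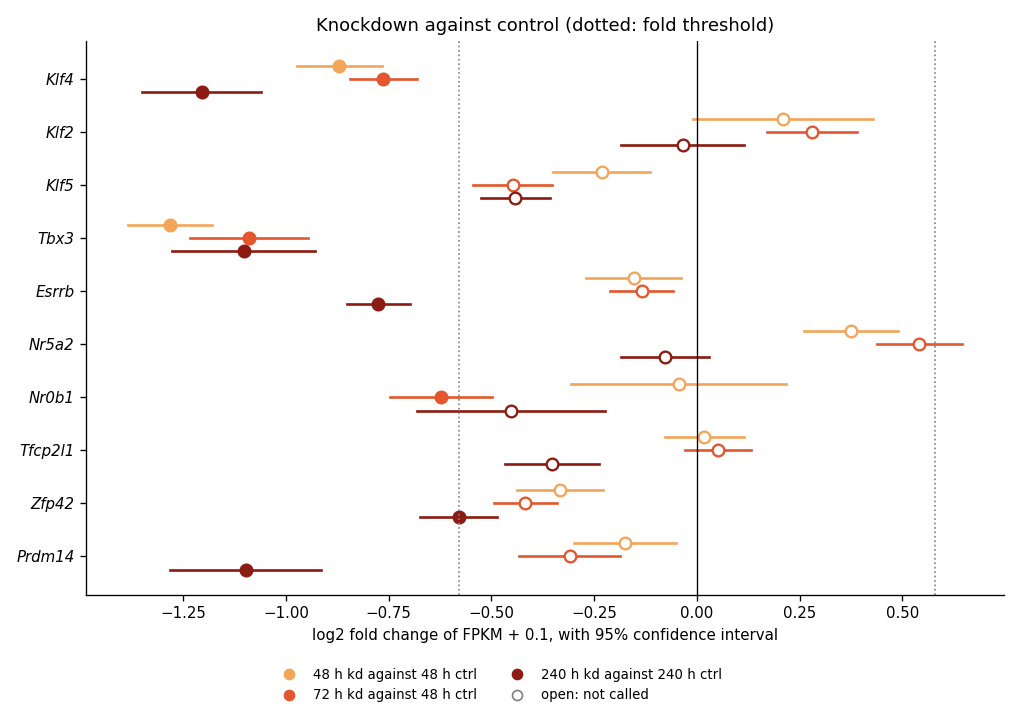
Log2 fold change of FPKM + 0.1 (x axis) of each factor (y axis) for the 3 knockdown comparisons, with 95% confidence intervals from limma over 6 libraries each. Filled points were called and dotted lines mark the fold threshold of 0.58. Klf4 and Tbx3 are filled in all 3 comparisons, and 240 h adds Prdm14, Esrrb and Zfp42.

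The 3 Krüppel-like factors are zinc finger proteins that share a DNA motif and can in part replace each other in mESC. Their transcripts differed in direction. Klf4, a direct Stat3 target and one of the reprogramming factors, measured 88.4, 88.5 and 90.8 FPKM in 48 h ctrl, 49.6, 47.1 and 49.6 in 48 h kd, and 51.5, 51.6 and 54.5 in 72 h kd. The 240 h ctrl libraries stood at 80.6, 81.8 and 87.9 FPKM, the 240 h kd libraries at 38.6, 35.1 and 34.7. The highest kd library of any time, at 54.5, was below the lowest ctrl library, at 80.6. Klf4 fell by 0.87 on the log2 scale at 48 h (SE 0.04, limma adjusted p = 0.000832), by 0.76 at 72 h (SE 0.03, adjusted p = 5.8e-05) and by 1.20 at 240 h (SE 0.06, adjusted p = 0.000124). The 240 h kd mean was 43.3% of its control and the 48 h kd mean 54.7%.

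Klf2, which acts on the same sites and whose protein is destabilised by Erk signalling, did not fall. It measured 137, 142 and 152 FPKM in 48 h ctrl, 177, 148 and 176 in 48 h kd, and 175, 171 and 177 in 72 h kd. The 72 h kd libraries were all above 48 h ctrl, whereas 48 h kd replicate 2 lay inside the control range. The 240 h groups overlapped, with 126, 135 and 146 FPKM untreated and 134, 134 and 129 after knockdown. The log2 difference was 0.21 at 48 h (95% interval −0.0094 to 0.43, limma adjusted p = 0.172), 0.28 at 72 h (0.17 to 0.39, limma adjusted p = 0.00333) and −0.03 at 240 h (−0.18 to 0.11, limma adjusted p = 0.692). None of these was called. Without 48 h kd replicate 2 the 48 h difference of Klf2 was 0.30 (limma adjusted p = 0.0304), still under the fold threshold.

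Klf5, known for its role in the inner cell mass and trophectoderm, was lower at each time but passed the fold threshold at none. It measured 17.5, 17.1 and 18.1 FPKM in 48 h ctrl, 15.2, 14.3 and 15.4 in 48 h kd, and 12.9, 12.4 and 13.3 in 72 h kd. The 240 h ctrl values were 16.8, 17.5 and 17.1 FPKM and the 240 h kd values 12.3, 12.8 and 12.7. Groups did not overlap at any time. The log2 difference was −0.23 at 48 h (limma adjusted p = 0.0284), −0.45 at 72 h (limma adjusted p = 0.000377) and −0.44 at 240 h (limma adjusted p = 0.000524).

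Tbx3, a T-box factor that helps to sustain self-renewal of mESC and is also used in extraembryonic endoderm, had the largest early fall of the 10 factors. It measured 6.11, 5.95 and 5.82 FPKM in 48 h ctrl, 2.48, 2.36 and 2.33 in 48 h kd, and 2.98, 2.59 and 2.69 in 72 h kd. The kd values at both times were under every control value by more than the spread of either group. Tbx3 fell by 1.28 on the log2 scale at 48 h (SE 0.04, limma adjusted p = 0.000832) and by 1.09 at 72 h (SE 0.06, adjusted p = 9.3e-05). In 240 h ctrl it measured 7.95, 8.13 and 8.64 FPKM and in 240 h kd 4.06, 3.44 and 3.87, a fall of 1.10 (SE 0.07, adjusted p = 0.000285). Tbx3 was also the 1 factor with an adjusted p under 0.05 between untreated groups, where 240 h ctrl stood at 138% of 48 h ctrl, with a log2 difference of 0.46 (limma adjusted p = 0.0357) that was under the fold threshold. The 240 h kd mean was therefore 46.0% of its own control and 63.6% of 48 h ctrl. The first 697 bases of Tbx3 (5: 119670669 to 119684724, plus strand) are shared with the antisense transcript Tbx3os1, whose span held 14 to 80 reads a library against 363 to 1555 for Tbx3, and reads of the shared stretch cannot be told apart.

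The 3 nuclear receptors moved differently from each other. Esrrb, an orphan receptor that is repressed by Tcf7l1 and can replace Nanog in self-renewal, stood at 89.7% of the control mean in 48 h kd and 91.0% in 72 h kd. It measured 4.98, 4.95 and 4.97 FPKM in 48 h ctrl, 4.62, 4.19 and 4.56 in 48 h kd, and 4.63, 4.37 and 4.54 in 72 h kd. These kd libraries were below every 48 h ctrl library, by a log2 difference of −0.15 (limma adjusted p = 0.0825) and −0.13 (limma adjusted p = 0.0131). Without 48 h kd replicate 2 the first of these was −0.11 (limma adjusted p = 0.0771). The 240 h ctrl libraries held 5.02, 5.10 and 5.22 FPKM and the 240 h kd libraries 2.98, 2.93 and 2.92, and Esrrb fell by 0.78 (SE 0.03, limma adjusted p = 8.9e-05) to 57.6% of the control. Its span of 160512 bases is 26.5 times its exonic length, and 6308 to 10962 reads stood behind each value.

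Nr5a2, an orphan receptor that activates Pou5f1 and can replace it in reprogramming, went the other way. It measured 1.14, 1.13 and 1.08 FPKM in 48 h ctrl, 1.52, 1.44 and 1.47 in 48 h kd, and 1.73, 1.62 and 1.67 in 72 h kd. All kd libraries were above all ctrl libraries, and the 72 h kd mean was 150% of the control. The log2 difference was 0.38 at 48 h (SE 0.05, limma adjusted p = 0.00628) and 0.54 at 72 h (SE 0.04, limma adjusted p = 0.000273), both under the fold threshold. On recovered reads with limma voom the 72 h difference was 0.58 (adjusted p = 7.2e-12) and was called, as were 22.6% of all genes by limma voom at 72 h. At 240 h Nr5a2 measured 1.09, 1.14 and 1.11 FPKM untreated and 1.03, 1.05 and 1.07 after knockdown, a log2 difference of −0.08 (95% interval −0.18 to 0.0286, limma adjusted p = 0.220).

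Nr0b1 (Dax1), which lacks the usual receptor DNA-binding domain and acts as a corepressor of Nr5a2 and Pou5f1, was the 1 factor called at 72 h only. It measured 47.4, 51.7 and 53.4 FPKM in 48 h ctrl, 54.3, 42.5 and 51.7 in 48 h kd, and 33.1, 32.2 and 33.5 in 72 h kd. The 48 h groups overlapped, with a log2 difference of −0.04 (95% interval −0.31 to 0.22, limma adjusted p = 0.813) that became 0.06 without 48 h kd replicate 2. At 72 h Nr0b1 fell by 0.62 (SE 0.05, limma adjusted p = 0.000309), and it was no longer called with 240 h ctrl (−0.52) or all 6 ctrl libraries (−0.57) as the control. In 240 h ctrl it measured 43.7, 45.5 and 53.6 FPKM and in 240 h kd 35.5, 36.5 and 32.1, a log2 difference of −0.45 (SE 0.09, limma adjusted p = 0.0150). These groups did not overlap, and the call was missed by its fold.

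Tfcp2l1, a CP2 family factor that both LIF and Wnt signalling induce, was within a narrow range in the early knockdown. It measured 10.7, 10.6 and 10.6 FPKM in 48 h ctrl, 10.8, 11.1 and 10.4 in 48 h kd, and 11.4, 10.9 and 10.7 in 72 h kd. The log2 difference was 0.02 (95% interval −0.08 to 0.11) and 0.05 (−0.03 to 0.13) with limma adjusted p-values of 0.797 and 0.226. In 240 h ctrl it measured 12.4, 11.9 and 11.3 FPKM and in 240 h kd 9.51, 8.90 and 9.34, which did not overlap, a log2 difference of −0.35 (SE 0.05, limma adjusted p = 0.00324) under the fold threshold. Of the small genes inside its span, Gm23497 held 114 to 169 reads a library, against 6600 to 8791 for Tfcp2l1.

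Zfp42 (Rex1), a zinc finger protein related to Yy1 and a common marker of the naive state, was lower at each time and most at 240 h. It measured 53.9, 53.8 and 55.3 FPKM in 48 h ctrl, 43.9, 41.5 and 43.9 in 48 h kd, and 39.5, 41.7 and 40.8 in 72 h kd. At 240 h it stood at 48.2, 48.9 and 51.3 FPKM untreated and at 33.7, 32.3 and 33.1 after knockdown, and groups did not overlap at any time. The log2 difference was −0.33 at 48 h (SE 0.04, limma adjusted p = 0.00697) and −0.42 at 72 h (SE 0.03, limma adjusted p = 0.000245). Zfp42 fell by 0.58 at 240 h (SE 0.04, limma adjusted p = 0.000310), at the fold threshold itself, and the call was lost in 5 of 16 alternatives, without 240 h ctrl replicate 3 (−0.55) and without 240 h kd replicate 2 (−0.56) among them. The pseudogene Zfp42-ps1 is 98.1% identical to a Zfp42 transcript over 266 aligned bases and held 263 to 533 reads a library against 5293 to 8812 for Zfp42, and how reads were split between them is uncertain.

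Prdm14, a PR domain zinc finger protein that represses Fgf receptor signalling and DNA methyltransferase genes together with Cbfa2t2 and polycomb proteins, fell late. It measured 2.71, 2.55 and 2.51 FPKM in 48 h ctrl, 2.40, 2.21 and 2.25 in 48 h kd, and 2.15, 2.11 and 1.96 in 72 h kd. The log2 difference was −0.17 at 48 h (SE 0.05, limma adjusted p = 0.0715) and −0.31 at 72 h (SE 0.05, limma adjusted p = 0.00347). In 240 h ctrl it measured 2.49, 2.47 and 2.78 FPKM and in 240 h kd 1.16, 1.24 and 1.06, so that every kd library was under every other library of the series. Prdm14 fell by 1.10 (SE 0.07, limma adjusted p = 0.000333) to 44.7% of its control. Between 198 and 509 reads stood behind each value, the fewest of the 10 factors.

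The knockdown effect at 240 h was set against that at 48 h in 1 fit of 12 libraries. The change was more negative at 240 h for 9 of 10 factors, and 2 were called, Prdm14 with a difference of −0.92 (SE 0.09, limma adjusted p = 0.000134) and Esrrb with −0.62 (SE 0.05, adjusted p = 5.7e-05). The median difference was −0.35 for the factors and −0.0044 for all genes tested. Of all 11412 genes tested, 5.82% were called for this difference and 3.1% were called lower. At an adjusted p under 0.05 alone 7 of 10 factors differed, all of them more negative at 240 h, against 15.6% of all genes in either direction. The remaining 5 were Nr5a2 (−0.45), Tfcp2l1 (−0.37), Klf4 (−0.33), Zfp42 (−0.25) and Klf5 (−0.21). For Nr0b1 (−0.41, limma adjusted p = 0.0976), Klf2 (−0.24, limma adjusted p = 0.174) and Tbx3 (0.18, limma adjusted p = 0.184) the difference did not pass. Without 48 h kd replicate 2 it passed for 9 of 10 factors and 14.7% of all genes, with Klf2 at −0.33 (limma adjusted p = 0.0314) and Nr0b1 at −0.51 (limma adjusted p = 0.0259) added.

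The untreated groups, and the kd groups, were also compared over time. Between 240 h ctrl and 48 h ctrl limma called 0 of 10 factors, and so did limma voom, against 0.475% and 1.36% of all genes, while 3 factors had an unadjusted p under 0.05 and 1, Tbx3, an adjusted one, as had 26.5% and 3.44% of all genes. Between 72 h kd and 48 h kd limma called 0 of 10 against 7.45% of all genes, with 5 factors and 47.1% of all genes at an unadjusted p under 0.05, and limma voom also called 0, against 13% of all genes. Nr0b1 was nearest, with a log2 difference of −0.58 (limma adjusted p = 0.00843), and without 48 h kd replicate 2 it was called at −0.68. Nr0b1 was likewise called without 72 h kd replicate 1 or replicate 3, at −0.58 and −0.59. Between 240 h kd and 72 h kd 3 of 10 fell against 15.7% of all genes called, Prdm14 by 0.79 (SE 0.07, limma adjusted p = 0.000287), Nr5a2 by 0.62 (SE 0.04, adjusted p = 0.000113) and Esrrb by 0.60 (SE 0.03, adjusted p = 7.4e-05). At an adjusted p under 0.05 alone 8 of 10 factors and 59.5% of all genes differed here, and between 72 h kd and 48 h kd 3 of 10 and 35.5%. Without 48 h kd replicate 2 the count between 72 h kd and 48 h kd was 2 of 10, with 0 higher. Nr5a2 then no longer passed (limma adjusted p = 0.0554). Of the 3 calls between 240 h kd and 72 h kd, rescaling to TPM left 1 and a pseudocount of 1 left 0. Klf4 had a log2 difference of −0.54 in the same comparison and Klf2 one of −0.40, neither of them called, and Tbx3 was higher by 0.45 (adjusted p = 0.00492). The comparisons between kd groups do not subtract untreated cells.

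**Figure D3:**
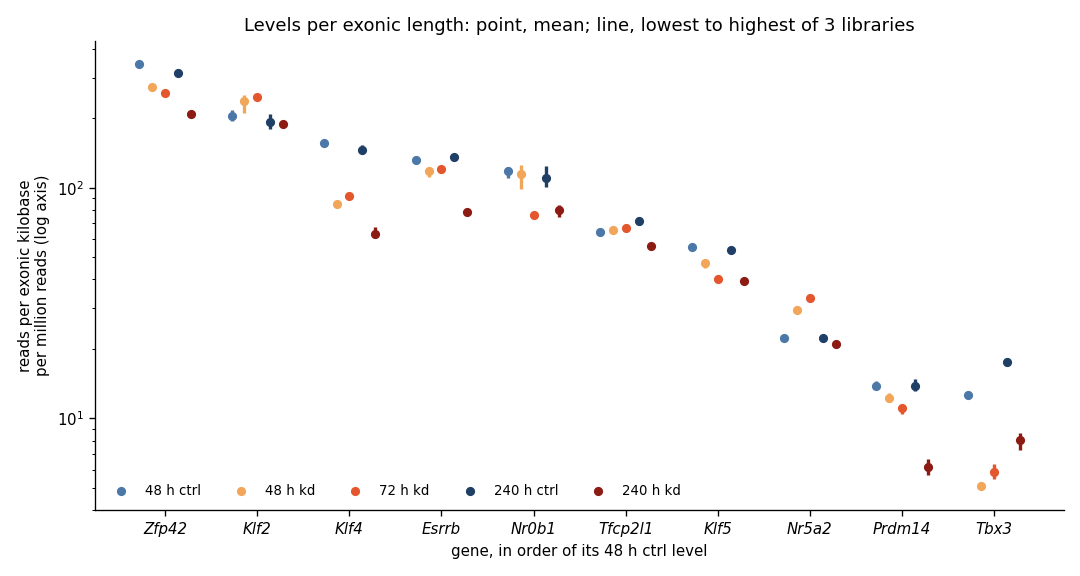
Reads per exonic kilobase, scaled to the library total as FPKM are (y axis, log scale), of the 10 factors (x axis, in the order of 48 h ctrl) in the 5 groups. Points are means and vertical lines run from the lowest to the highest of 3 libraries. Zfp42 leads in 48 h ctrl at 344, and the 240 h kd mean of Klf4 is 63.1 against 146 in 240 h ctrl.

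To compare levels between genes, reads were divided by exonic length in place of the whole span, with the scaling to the library total kept. Since reads in introns were counted too, this overstates genes with long introns. In 48 h ctrl the order was Zfp42 (344 scaled reads per exonic kilobase), Klf2 (204), Klf4 (156), Esrrb (132), Nr0b1 (118), Tfcp2l1 (64.5), Klf5 (55.2), Nr5a2 (22.3), Prdm14 (13.9) and Tbx3 (12.6). No neighbours in this order overlapped in their libraries. In 240 h kd the level of Klf4, at 63.1, was behind those of Nr0b1 at 80.3 and Esrrb at 78.1, and the libraries of Nr0b1 and Esrrb overlapped. Tbx3, at 8.04, then stood above Prdm14, at 6.16, which was last.

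The shape of change over the 5 groups was compared as the root mean square difference of the centred group means of log2(FPKM + 0.1). The closest pairs of factors were Klf5 with Zfp42 (0.0939), Klf2 with Nr5a2 (0.0944) and Esrrb with Zfp42 (0.116). The most unlike pair was Tbx3 with Nr5a2 (0.854). Tbx3, Klf4 and Prdm14 were the 3 factors whose group means spanned more than 1 on the log2 scale, and for these the nearest of 6949 other genes were named. Klf4 was closest to Dact2 (0.0590), Tnip1 (0.0624) and Stx3 (0.0754), Prdm14 to Mymx (0.0554), Ivns1abp (0.0825) and Sft2d2 (0.0852), and Tbx3 to Ak4 (0.185), Chmp1a (0.241) and Msc (0.242). Dact2, for example, stood at 3.54 ± 0.17 FPKM untreated and 1.69 ± 0.08 after knockdown at 48 h, and at 3.14 ± 0.17 and 1.25 ± 0.10 at 240 h (SD, n = 3). Each such likeness rests on 5 group means and is a description.

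None of 7 core factors was called. Of Pou5f1, Sox2, Nanog, Sall4, Zfp281, Utf1 and Rif1, limma called 0 of 7 at 48 h, 72 h and 240 h, with 4, 5 and 4 at an unadjusted p under 0.05, as had 31.9%, 60.8% and 44.9% of all genes, and limma voom also called 0, where it called 9.22%, 22.6% and 18% of all genes. Their median log2 fold change was −0.12, −0.06 and 0.05. Pou5f1 measured 271 ± 12.4 FPKM untreated and 311 ± 36.9 after knockdown at 48 h, and 260 ± 22.2 and 244 ± 5.73 at 240 h (SD, n = 3). Nanog stood at 64.0 ± 1.07 FPKM in 240 h ctrl and at 60.1 ± 1.26 in 240 h kd, a log2 difference of −0.09 (limma adjusted p = 0.0845). Sox2 was lower at 48 h by a log2 difference of −0.35 (limma adjusted p = 0.00736) and at 240 h by one of −0.29 (limma adjusted p = 0.00437), and higher at 72 h by 0.14 (limma adjusted p = 0.0114).

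**Figure D4:**
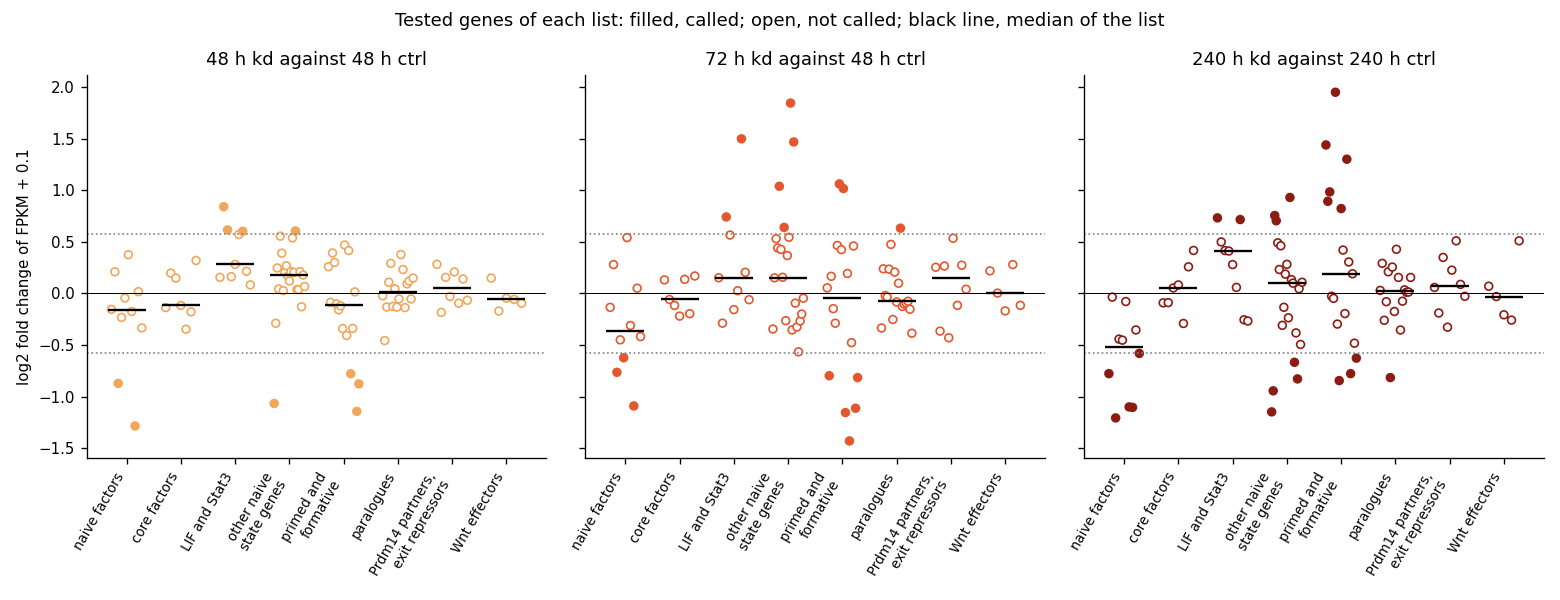
Log2 fold change of FPKM + 0.1 (y axis) of the tested genes of each list (x axis) in the 3 knockdown comparisons. Filled points were called, dotted lines mark the fold threshold and the black line is the median of the list. The median of the naive factors is below 0 in each panel, at −0.16, −0.36 and −0.52, and that of the LIF and Stat3 genes is above it, at 0.28, 0.15 and 0.41.

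Genes of the LIF and Stat3 pathway, which feeds Klf4 and Tfcp2l1, were called higher where they were called. Of 9 tested, 3 rose at 48 h (Gbx2, Il6st and Pim1), 2 at 72 h (Il6st and Pim1) and 2 at 240 h (Pim1 and Bcl3), and 0 were called lower, beside 3.99%, 13.5% and 8.91% of all genes called in either direction. Their median log2 fold change was 0.28, 0.15 and 0.41. Pim1, a kinase gene that Stat3 induces, stood at 25.1 ± 0.845 FPKM in 48 h ctrl, against 38.1 ± 1.68 after 48 h and 71.0 ± 2.42 after 72 h of knockdown, and at 23.3 ± 0.997 against 38.4 ± 0.358 at 240 h (SD, n = 3). It rose by 0.60, 1.50 and 0.72 on the log2 scale (limma adjusted p = 0.00280, 2.0e-05 and 0.000193). Il6st, the receptor chain gp130 through which LIF signals, rose by 0.62 at 48 h and 0.74 at 72 h (limma adjusted p = 0.00437 and 6.5e-05). Gbx2, a homeobox gene downstream of Stat3, rose by 0.84 at 48 h (limma adjusted p = 0.00179) and differed by −0.29 at 72 h. Stat3 and its feedback inhibitor Socs3, named after their values were seen, went lower late without being called. At 240 h Stat3 stood at 2.53 ± 0.0455 FPKM untreated and 2.08 ± 0.0669 after knockdown, and Socs3 at 49.1 ± 0.674 and 41.2 ± 1.48 (SD, n = 3). The 240 h difference minus that at 48 h was −0.35 for Stat3 and −0.47 for Socs3 (limma adjusted p = 0.000903 and 0.000890).

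Of 5 tested Wnt effectors limma called 0 in each knockdown comparison, with 1, 3 and 3 at an unadjusted p under 0.05 (31.9%, 60.8% and 44.9% of all genes). Lef1, a Wnt-responsive factor, and Axin2, a feedback inhibitor that Wnt signalling induces, were below the FPKM minimum there and are named after their values were seen. Limma voom, which tested 8, called 2 lower each time, Lef1 and Axin2, beside 9.22%, 22.6% and 18% of all genes. Lef1 stood at 0.121 FPKM in 48 h ctrl, 0.0293 and 0.0112 after 48 h and 72 h of knockdown, and at 0.0925 untreated and 0.0241 after knockdown at 240 h. Axin2 stood at 0.382, 0.239 and 0.148 FPKM in the same early groups and at 0.415 and 0.177 at 240 h. By limma voom Lef1 fell by 2.08, 3.41 and 1.92 on the log2 scale (adjusted p = 1.6e-05, 4.2e-12 and 4.2e-08) and Axin2 by 0.67, 1.35 and 1.21 (adjusted p = 0.00183, 4.6e-09 and 6.9e-06). Tcf7l1, the repressor of Esrrb, had a log2 difference of −0.09, −0.11 and 0.51 at 48 h, 72 h and 240 h. For Tcf7l1 the difference between 240 h and 48 h was 0.60 (SE 0.08, limma adjusted p = 0.000996), a call in the direction opposite to that of Esrrb. Whether Tcf7l1 had a part in the change of Esrrb was not tested. Of 8 Prdm14 partners and repressors that drive exit from the naive state, limma called 0 at each time, beside 3.99%, 13.5% and 8.91% of all genes, with 5, 6 and 6 at an unadjusted p under 0.05. Limma voom called 1, 2 and 2 of 9, 10 and 10, near its 9.22%, 22.6% and 18% of all genes, with Runx1t1 higher each time and Cbfa2t3 higher at 72 h and 240 h.

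Other genes of the naive state went both ways. Leaving out Aire, 20 were tested each time, of which 1, 4 and 3 rose and 0, 0 and 3 fell, where 3.99%, 13.5% and 8.91% of all genes were called. Aire is given by its values, since it reached the minimum of 0.5 FPKM through its ctrl libraries alone. It stood at 0.758 ± 0.128 FPKM in 48 h ctrl and 0.163 ± 0.0243 after 72 h of knockdown, too low a mean for the test, and at 0.312 ± 0.0812 after 48 h. At 240 h it stood at 0.901 ± 0.129 FPKM untreated and 0.353 ± 0.0683 after knockdown (SD, n = 3). Sox15, a Sox factor of mESC, stood at 7.29 ± 0.284 FPKM in 48 h ctrl against 26.4 ± 1.20 after 72 h of knockdown (SD, n = 3), and rose by 1.84 (limma adjusted p = 1.8e-05) at 72 h and by 0.93 (limma adjusted p = 0.00199) at 240 h. Tcl1, an Akt coactivator, rose by 0.61 at 48 h and by 1.47 at 72 h (limma adjusted p = 0.00672 and 2.4e-05) and differed by 0.10 at 240 h. Dppa5a, an RNA-binding protein of early embryos, rose by 1.04 at 72 h (limma adjusted p = 4.6e-05). The 3 that fell at 240 h were Tdh, Tet2 and Cdh1, chosen here after their values were seen. Cdh1, which encodes E-cadherin, fell by 0.94 (limma adjusted p = 7.0e-05).

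Genes of the formative and primed epiblast went both ways. At 48 h 0 of 16 rose and 3 fell, at 72 h 2 of 16 rose and 5 fell, and at 240 h 6 of 17 rose and 3 fell, beside the same 3.99%, 13.5% and 8.91% of all genes. In the difference between 240 h and 48 h, 8 of 17 were called more positive and 0 more negative, against 5.82% of all genes in either direction. Otx2 is the gene not tested at 48 h and 72 h. It stood at 0.699 ± 0.00985 FPKM in 48 h ctrl, 0.214 ± 0.0450 and 0.187 ± 0.0152 after 48 h and 72 h of knockdown, and at 0.589 ± 0.0556 untreated and 0.823 ± 0.102 after knockdown at 240 h (SD, n = 3). Its lower early values therefore enter no count above, whereas it is among the 8. Some kept 1 direction, and 2 of these are named after their values were seen. Zic5, a zinc finger factor, fell by 0.88, 0.81 and 0.63 at 48 h, 72 h and 240 h (limma adjusted p = 0.00442, 0.000649 and 0.000310). Nodal, a ligand of the Tgf-beta family, differed by 0.47 at 48 h and rose by 1.02 at 72 h and 0.82 at 240 h (limma adjusted p = 0.00363, 3.4e-05 and 0.000478). Sox3 fell by 0.78 at 48 h and by 1.43 at 72 h (limma adjusted p = 0.0270 and 0.000176) and differed by 0.30 at 240 h. Krt18, a keratin, stood at 1.70 ± 0.316 FPKM untreated and 6.78 ± 0.304 after knockdown at 240 h (SD, n = 3), a rise of 1.95 (limma adjusted p = 0.000302). Dnmt3a rose by 1.44 at 240 h (limma adjusted p = 5.7e-05). Dnmt3b, a DNA methyltransferase gene that Prdm14 is known to repress, named after its values were seen, had a log2 difference of −0.09 at 48 h, fell by 0.80 at 72 h and rose by 0.89 at 240 h (limma adjusted p = 0.202, 4.2e-05 and 5.7e-05).

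Of the paralogues of the 10 factors, 16, 17 and 16 were tested. At 48 h limma called 0 of them, with 6 at an unadjusted p under 0.05 against 31.9% of all genes. At 72 h it called only Klf9 and at 240 h only Klf15. Of all genes limma called 3.99%, 13.5% and 8.91% at 48 h, 72 h and 240 h. Limma voom called 4 of 34, 8 of 35 and 12 of 37 paralogues, beside 9.22%, 22.6% and 18% of all genes. Klf9 rose by 0.63 at 72 h, from 11.8 ± 0.211 to 18.3 ± 0.318 FPKM (SD, n = 3, limma adjusted p = 6.0e-05). Klf15 fell by 0.81 at 240 h, from 1.63 ± 0.197 to 0.878 ± 0.0531 FPKM (SD, n = 3, limma adjusted p = 0.00228).

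Markers of other cell types were summed beside these results. Of 10 primitive endoderm markers, 0 had a group mean of at least 1 FPKM, and Afp and Ttr were at 0 in 48 h ctrl. Their sum was 0.607 to 0.649 FPKM for 48 h ctrl, 0.263 to 0.347 for 48 h kd, 0.178 to 0.260 for 72 h kd, 0.805 to 0.881 for 240 h ctrl, and 0.649 to 0.752 for 240 h kd. Sox7 made up most of the ctrl sums, with 0.437 FPKM in 48 h ctrl and 0.569 in 240 h ctrl. It stood at 0.128, 0.0404 and 0.248 FPKM after 48 h, 72 h and 240 h of knockdown. At 240 h Gata4, Gata6, Sox17, Foxa2, Pdgfra, Dab2 and Afp had a higher mean after knockdown. Like Sox7, Hnf4a and Ttr had a lower one. Of 10 mesoderm markers 0 reached 1 FPKM, and the sum was 1.59 to 2.40 FPKM. Of 10 trophoblast markers only Tfap2c did so, in every group, while Tpbpa and Prl3d1 were at 0 throughout, and the sum was 8.87 to 9.67 FPKM for 48 h ctrl, 5.59 to 6.22 for 48 h kd, 16.7 to 17.3 for 72 h kd, 7.54 to 8.22 for 240 h ctrl, and 13.3 to 13.7 for 240 h kd. Tfap2c made up most of this sum, with 8.77 FPKM in 48 h ctrl and 16.6 after 72 h of knockdown, and with 7.33 untreated and 11.5 after knockdown at 240 h. Hand1, Gcm1 and Cdx2 stood at 0.0753, 0.00950 and 0.0319 FPKM after 72 h of knockdown, and at 0.856, 0.278 and 0.329 after 240 h against 0.0979, 0.0215 and 0.0702 in 240 h ctrl. Of 10 neural progenitor markers Sox1 and Nes did so, and the sum was 7.69 to 8.92 FPKM for 48 h ctrl, 13.4 to 15.2 for 48 h kd, 17.5 to 19.3 for 72 h kd, 8.25 to 9.12 for 240 h ctrl, and 20.4 to 21.3 for 240 h kd. The members of the neural list did not move together at 48 h and 72 h. Sox1 stood at 4.69 FPKM in 48 h ctrl and rose to 11.7 and 15.8 after 48 h and 72 h of knockdown, while Nes stood at 2.86, 2.09 and 2.02 and Pax6 at 0.400, 0.144 and 0.117 in the same groups. At 240 h all 3 had a higher mean after knockdown, Sox1 with 5.23 FPKM untreated and 15.5 after knockdown, Nes with 2.74 and 4.32, and Pax6 with 0.282 and 0.339. Of 10 fibroblast markers Vim did so in every group and Twist1 in all but 48 h ctrl, with Vim making up most of a sum of 39.2 to 42.3 FPKM in 240 h kd against at most 16.3 in 240 h ctrl, while it was 12.1 to 15.3 in the 3 earlier groups. The primitive endoderm sum was lower in each kd group, at 240 h mainly through Sox7, and the neural sum was higher. Klf4 and Tbx3 fell in each of these groups as well. The trophoblast sum was higher at 72 h and 240 h and the fibroblast sum at 240 h, when Klf4, Tbx3, Prdm14, Esrrb and Zfp42 fell. The part of other cell types in these falls was not tested.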

How the data were processed

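The authors aligned single reads to mm10 and counted them per gene. The submitters' processing notes name STAR 2.7.0c, DESeq2 1.30.0, R 4.0.3 and GRCm38.p6. The deposited values are FPKM, made by the authors, for 55228 genes in each of 15 libraries. The annotation used to count the RNA reads is not given in the sources used here (the study's methods name a later GENCODE release for assigning ChIP-seq peaks to genes), and identifiers, strand and exonic length come from a match to GENCODE M21 (GRCm38). Multiplied by the whole gene span and a library total, 100% of values above 0 came out as whole reads (tolerance 0.001), so depth was recovered.

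FPKM are not counts, so log2(FPKM + 0.1) was tested with limma 3.58.1 (R 4.3.3, lmFit, eBayes with trend, two-sided). Genes averaging under 0.5 FPKM across the compared libraries were left out, with Benjamini-Hochberg adjustment over the genes kept and the fold threshold of 0.58 used in the study. Fold changes are on the log2(FPKM + 0.1) scale, which understates those of low genes. Fits used the groups compared, and 12 libraries for the difference between 240 h and 48 h. With 3 libraries a side, exact permutation allows no p below 0.1 and was not used. All 10 factors passed the minimum in every comparison.

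The 10 factors, the other gene lists, which were written from general knowledge, and the tests were chosen with earlier results of these data known. Named besides the factors are Smarcb1, genes overlapping a factor, for each list up to 3 called genes of the largest change with a mean of at least 1 FPKM, and, for factors spanning more than 1 on the log2 scale, the 3 genes of most similar group means (mean of at least 1 FPKM and 50 reads, predicted genes left out). Other names were added after their values were seen.

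The alternatives tried were the replicate number as a block, dropping the fold threshold, TPM in place of FPKM, quantile normalization, median centring, a pseudocount of 1 or of 0.01, dropping the FPKM minimum or replacing it by 10 reads, fitting the 15 libraries together, limma voom on recovered reads (genes averaging 10 or more), each library left out, and other controls for 72 h. Tested on simulated data with 200 genes changed 2-fold, the fits recovered 90%, 90.5% and 90.5% of them at 48 h, 72 h and 240 h, with 5, 2 and 1 false calls, and 86.5% with 3 false calls for the difference between 240 h and 48 h. The simulated noise was independent between genes and libraries, and the planted changes lay well above the fold threshold. These rates therefore do not describe calls near that threshold or the effect of a divergent library. Python 3.11.15, pandas 2.3.3, numpy 2.4.6, Biopython 1.88 and matplotlib 3.10.9 were used. Protein sequences were not analysed here, and 1 gene of the core factor list is not reported here and was left out of its counts.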

Additional observations from a re-analysis of the deposited data

Results flagged for a closer look

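The change under knockdown at 240 h was more negative than that at 48 h for 7 of the 10 factors in the test of this difference (limma over 12 libraries, adjusted p under 0.05). On the log2 scale the 240 h effect minus the 48 h effect was −0.92 for Prdm14, −0.62 for Esrrb, −0.45 for Nr5a2, −0.37 for Tfcp2l1, −0.33 for Klf4, −0.25 for Zfp42 and −0.21 for Klf5. For Nr5a2 the log2 difference was 0.38 at 48 h and −0.08 at 240 h, and for Tfcp2l1 it was 0.02 and −0.35. Over all genes tested, 15.6% differed by the same rule. The test subtracts untreated cells of each age. Between these, 1 of the 10 factors, Tbx3, passed the same rule, and 0 were called with the fold threshold. The shares of all genes were 3.44% and 0.475%. Tfcp2l1, among the 7, stood higher in 240 h ctrl than in 48 h ctrl by a log2 difference of 0.15 (limma adjusted p = 0.0917). Whether the response to knockdown differs by the age of the culture or by the length of treatment cannot be told apart. Without 48 h kd replicate 2, Klf2 (−0.33) and Nr0b1 (−0.51) passed too. Groups of 3 libraries are too small for a test of single outlying libraries.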

How the results depend on the processing

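Of the values of single factors under the alternatives, 1201 kept direction and call, 32 gained calls, 14 lost them, and 23 changed sign. Dropping the fold threshold is among these alternatives and can only add calls, so the gains do not measure processing alone. Without the fold threshold, 5, 9, 8, 1, 3 and 8 of 10 factors passed at 48 h, 72 h, 240 h, between untreated groups, from 48 h kd to 72 h kd and from 72 h kd to 240 h kd, and 7 in the difference between 240 h and 48 h, against 16.1%, 55%, 33.8%, 3.44%, 35.5%, 59.5% and 15.6% of all genes. Centring gave 1 call from 48 h kd to 72 h kd, where leaving out a library gave 0 to 1. From 72 h kd to 240 h kd a pseudocount of 1 gave 0 calls and TPM 1, and in the difference between 240 h and 48 h a pseudocount of 1 gave 1. The cause was not tested. TPM moved the median of all genes between untreated groups by 0.11, and factors there turned to 0.013 (Klf4), 0.028 (Klf2), 0.073 (Klf5), 0.10 (Prdm14), 0.013 (Nr0b1) and 0.098 (Nr5a2), all smaller than that shift. TPM also turned Tfcp2l1 at 48 h to −0.023 and Klf5 from 72 h kd to 240 h kd to 0.052, and quantile normalization turned Klf2 and Klf5 between untreated groups to 0.011 and 0.010. Tfcp2l1 at 72 h became −0.10 against 240 h ctrl and −0.0253 against all 6 ctrl libraries. With a library left out, the range was −0.00484 to 0.042 for Tfcp2l1 and −0.12 to 0.062 for Nr0b1 at 48 h, −0.087 to 0.019 for Klf2 at 240 h, −0.059 to 0.024 for Prdm14 and −0.027 to 0.011 for Nr5a2 between untreated groups, and −0.016 to 0.12 for Klf2 and −0.022 to 0.046 for Esrrb from 48 h kd to 72 h kd. The 240 h call of Zfp42 was lost with a pseudocount of 1 (−0.57), centring (−0.58) and quantile normalization (−0.55).

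With the replicate number as a block, 2, 3 and 5 factors were called at 48 h, 72 h and 240 h, and it changed no call of a factor. The numbers showed no sign of pairing the libraries: deviations of same-numbered libraries from their group means correlated at −0.158 to 0.142 over 30 pairs, 2 of them over 0.1. With so few libraries a group, such correlations cannot exclude that a number marks a shared culture.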

Other observations

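The processed pseudogene Zfp42-ps1, which overlaps no factor but holds a near copy of part of Zfp42, measured 76.2 ± 5.58 FPKM untreated and 59.1 ± 3.59 after knockdown at 48 h, 54.1 ± 1.32 after 72 h of knockdown, and 66.2 ± 5.96 untreated and 41.4 ± 2.14 after knockdown at 240 h (SD, n = 3). The log2 difference of Zfp42-ps1 was −0.36 at 48 h and −0.49 at 72 h, neither called, and it fell by 0.67 at 240 h (limma adjusted p = 0.00196). How many of these reads came from Zfp42 was not tested.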
